A study of Mus musculus with 8 samples.

Results

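The 29 genes described here encode the enzymes that make cholesterol and fatty acids, the proteins that regulate those enzymes, and 1 carrier of sterols. They were listed by symbol for their roles in these pathways, with no measured value in the rule, and are 29 of 18193 genes that carried a single symbol on the arrays. The list was chosen with earlier results of these data known, so its counts beside those of all genes are a description and no test. All 29 had a signal past the filter on low values. The study compared stem cells of Crebbp+/- and wild-type mouse fetal livers on 8 Affymetrix mouse expression arrays. Crebbp encodes CBP, a histone acetyltransferase that acts as a transcriptional coactivator. The mutant embryos carried 1 mutant copy of Crebbp (Crebbp+/-) and the others were wild type, both on a C57BL/6 background, and the labels name no further allele, Cre driver or agent in either genotype. Per the labels, cells were sorted from fetal liver as lineage-negative, Sca-1+, c-Kit++ and AA4.1+, each preparation was a pool from 15 embryos, and the age is given as 14 days post coitum in one field and 14.5 in another. Which part of Crebbp the mutant allele lacks is not given in the labels, and the RNA, 12 ng per preparation, was amplified before labelling.

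Each genotype had 2 numbered samples, and each sample had 2 arrays. The labels do not say that the 2 arrays of a sample held separate cells, so they were averaged, which left n = 2 samples per genotype. Nothing states that the samples came from separate litters, so p-values measure the spread between these preparations. Values are GCRMA signals on the log2 scale, in which 1 unit is a factor of 2 (GCRMA is a background correction and normalization for this kind of array), and a gene is given by the brightest of its probe sets, the groups of probes that measure a transcript. The wild-type value was subtracted from that of Crebbp+/- for each difference, whose standard error (SE) is that of a limma fit over all 22518 probe sets that passed the filter, a mean above 2.72. Levels of different genes cannot be set against each other on this array.

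Cells build cholesterol from acetyl-CoA through mevalonate, isoprenoid units, squalene and lanosterol, and the same acetyl-CoA feeds fatty acid synthesis. Genes of both routes are switched on by the SREBP transcription factors, encoded by Srebf1 and Srebf2, which SCAP escorts out of the endoplasmic reticulum when sterols are scarce and which INSIG proteins hold back when sterols are plentiful. SREBP binds promoters together with NF-Y, the factor that recognises CCAAT, and CBP is known as a coactivator of SREBP and of CREB.

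The promoters of 3 sterol enzymes are shown because Hmgcs1 opens the mevalonate route and Msmo1 and Hsd17b7 had, of the squalene and sterol steps, the largest positive differences between genotypes. Each line gives the 250 bases before the RefSeq start site on the gene's own strand, 5′ to 3′, in the GRCm38.p6 build. Capitals mark matches to the motifs searched on either strand, which were TCACNCCAC (similar to a sterol response element), CCAAT (the site of NF-Y, which reads as ATTGG where it lies on the other strand), CACGTG (an E-box) and TGACGTCA (a cyclic AMP response element, the site of CREB).
Hmgcs1, chr13:119690101-119690350, plus strand: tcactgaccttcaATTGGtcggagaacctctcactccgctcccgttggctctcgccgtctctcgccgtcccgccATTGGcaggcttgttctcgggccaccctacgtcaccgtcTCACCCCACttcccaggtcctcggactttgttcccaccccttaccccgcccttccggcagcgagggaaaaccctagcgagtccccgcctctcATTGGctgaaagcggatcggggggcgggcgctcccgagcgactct
Msmo1, chr8:64733579-64733828, minus strand: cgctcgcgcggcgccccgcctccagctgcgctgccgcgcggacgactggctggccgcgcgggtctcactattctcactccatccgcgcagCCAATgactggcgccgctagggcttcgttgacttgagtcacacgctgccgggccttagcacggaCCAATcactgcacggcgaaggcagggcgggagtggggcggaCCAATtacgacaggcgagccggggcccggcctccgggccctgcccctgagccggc
Hsd17b7, chr1:169969206-169969455, minus strand: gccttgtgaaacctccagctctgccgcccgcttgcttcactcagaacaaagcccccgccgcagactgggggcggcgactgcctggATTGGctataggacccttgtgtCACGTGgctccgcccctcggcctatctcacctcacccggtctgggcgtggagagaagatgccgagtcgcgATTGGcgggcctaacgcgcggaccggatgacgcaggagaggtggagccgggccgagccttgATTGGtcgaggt

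In the printed stretch of Hmgcs1, TCACNCCAC began at position -137 from the start site, between CCAAT matches on the other strand that began at -176 and -45, with a further one at -237. Msmo1 held CCAAT at -160, -96 and -55. Hsd17b7 held CCAAT on the other strand at -165, -73 and -12, and CACGTG at -143. RefSeq windows of 250 bases before to 50 after the start were at hand for 23 of the 29 genes, with 31 windows in all. CCAAT was found in 22 of these 31 windows (71.0%) and in 21 of the 23 genes, against 37.4% of 32851 windows of all genes and 38.2% of 21262 windows of protein-coding genes. CACGTG lay in 6 of 31 windows (19.4%), against 7.15% of all windows, and in 5 of the 23 genes, since 2 overlapping windows of Scap hold the same site. TCACNCCAC lay in 1 of 31 (3.23%), that of Hmgcs1, against 1.24% of all windows, and TGACGTCA in 0 of 31, against 1.79%. These are matches of letters, and binding was not measured.

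Of the markers of the sort, Cd93 and Kit were expressed in both genotypes, and the gene of Sca-1 was not analysed here. Cd93, which encodes the AA4.1 antigen, had sample means of 12.24 and 12.16 in Crebbp+/-, against 12.33 and 12.05 in wild type, and Kit had 9.34 and 9.31 in Crebbp+/-, against 9.36 and 9.05 in wild type. Mpo, a granule enzyme of myeloid progenitors and the brightest marker of the stem and progenitor list, had 12.84 and 13.01 in Crebbp+/-, against 12.90 and 12.86 in wild type. Of the 9 markers of that list measured here, 3 stood under an unadjusted limma p of 0.05, against 2.67% of all genes, and 0 under an adjusted one. These 3, named after their values were seen, encode transcription factors of stem cells and were lower in Crebbp+/-. Meis1 had 6.92 and 6.08 in Crebbp+/-, against 7.99 and 7.52 in wild type, a difference of -1.26 (SE 0.40). Hlf differed by -0.54 (SE 0.20) and Mecom by -0.38 (SE 0.14), each with all 4 Crebbp+/- arrays below all 4 wild-type arrays. The brightest probe set of Crebbp averaged 11.81 in Crebbp+/- and 11.74 in wild type, which is no check of the genotype because the deleted part is not given. Arrays of a sample correlated with a median r of 0.991 over all probe sets, arrays that shared a sample number across genotypes with 0.988, and arrays of samples 1 and 2 within a genotype with 0.985. The Gapdh control probe sets, whose 5′ minus 3′ log2 signal is lower where RNA is degraded or copied short, gave -0.89 and -1.88 in Crebbp+/- samples 1 and 2, against -1.22 and -2.59 in wild-type samples 1 and 2. The genotype mean of that signal was higher in Crebbp+/- by 0.52, and that of the Actb controls by 0.44. Hepatocyte markers also differed between samples. Their summed linear signal over 13 genes was 352 and 500.4 in Crebbp+/- samples 1 and 2, against 87.7 and 952 in wild-type samples 1 and 2, and Apob, Apoh, Fgb, Fgg, Ahsg and Ambp were at background. Macrophage markers summed to 707 and 2012.5 in Crebbp+/- samples 1 and 2, against 992 and 1833 in wild-type samples 1 and 2, mainly from Csf1r, with Adgre1, C1qa, C1qc, Vsig4 and Marco at background. Of the erythroid markers 1 of 6 passed the filter. This was Slc4a1, with 2.55 and 3.31 on the arrays of Crebbp+/- sample 1 and 2.53 and 4.37 on those of Crebbp+/- sample 2, against 2.50 and 2.41 on those of wild-type sample 1 and 2.53 and 2.50 on those of wild-type sample 2, and it differed by 0.70 (SE 0.24), with 2 Crebbp+/- arrays above the filter and no wild-type array. Of the lineage markers of the sort 1 of 4 passed the filter (Cd4), and of the endothelial and stromal markers 1 of 7 (Pdgfrb). The part of these transcripts in the differences described here was not tested.

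Among the 17 enzymes of cholesterol synthesis, 15 had a positive difference and 2 a negative one, with a median difference of 0.24. Over all 10600 genes tested, 56.9% had a positive difference and the median was 0.04. Within both sample numbers 9 of the 17 enzymes were higher in Crebbp+/-, against 37.2% of all genes, and 2 were lower, against 24.7%. The other 6 had values of opposite sign within the sample numbers. No member passed the test at an adjusted p of 0.05, and neither did any of the 22518 probe sets (0%), so the direction of each member is a value and not a call. Adjusted limma p-values of the 29 members ran from 0.991 to 0.999, and all 29 confidence intervals of 95% spanned 0. At an unadjusted limma p under 0.05 stood 0 of 29 members, against 2.67% of all genes. In pooled cells, fewer cells of a type and less RNA per cell cannot be told apart.

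**Figure D1:**
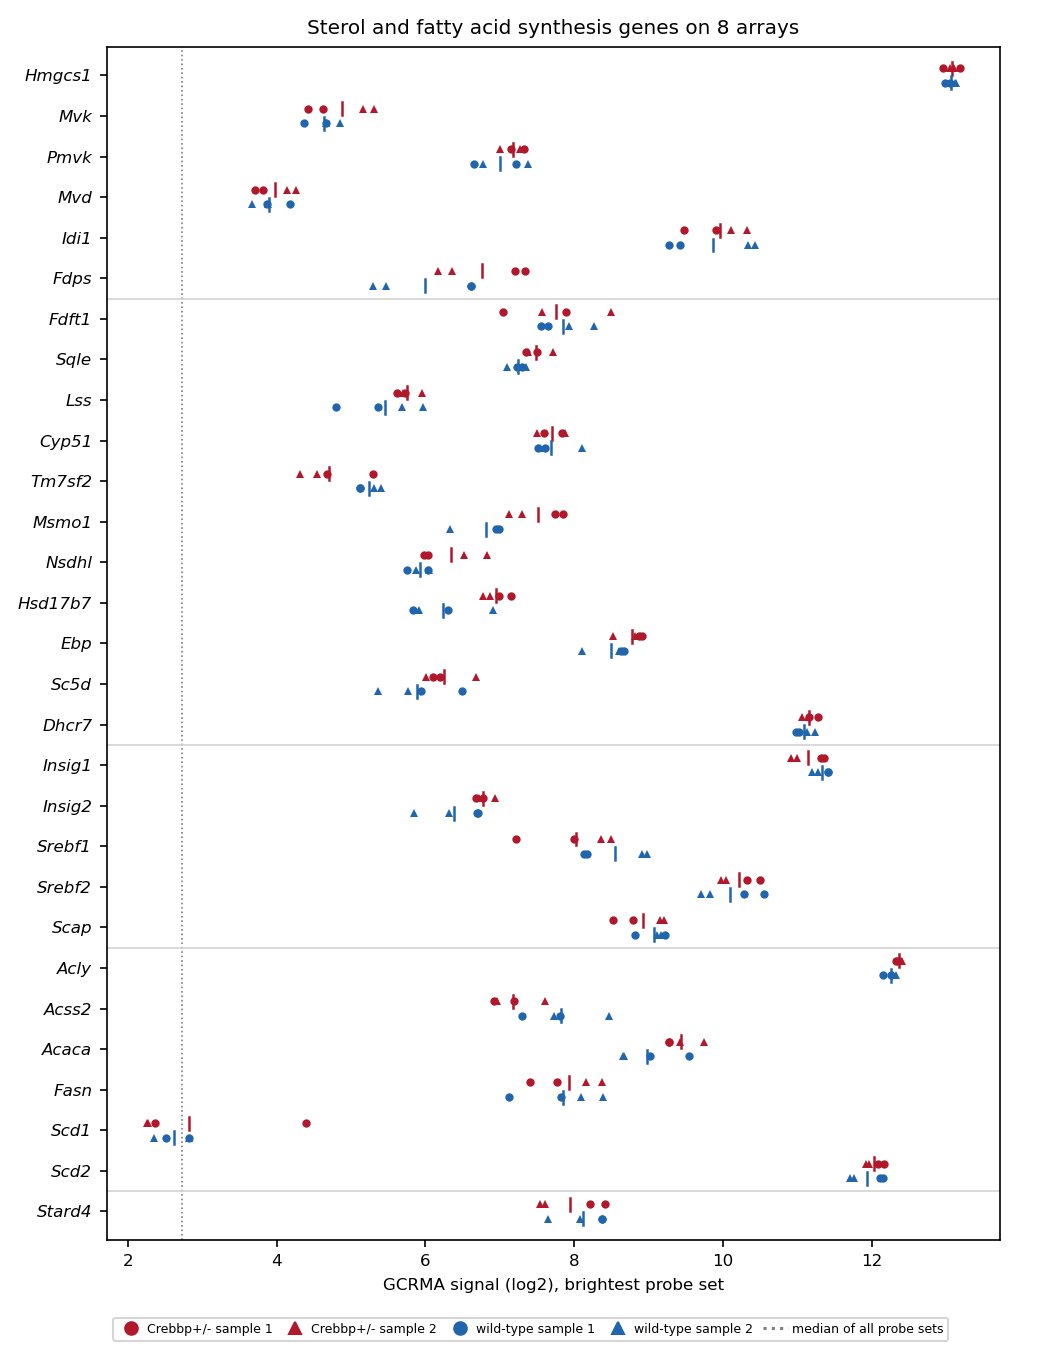
GCRMA log2 signal (horizontal axis) of the brightest probe set of each of the 29 genes on 8 arrays, ordered by role, with Crebbp+/- in red above wild type in blue. Circles are arrays of samples numbered 1, triangles those of samples numbered 2, vertical ticks genotype means and the dotted line the filter. Genotypes overlap for every gene but Msmo1.

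Of the 6 genes of the mevalonate route, all 6 differed in the positive direction (median 0.13), against 56.9% of all genes. Within both sample numbers 3 of the 6 were higher in Crebbp+/-, against 37.2% of all genes. Fdps, farnesyl diphosphate synthase, which joins isoprenoid units into the last intermediate shared by sterols and prenylated proteins, had signals of 7.34 and 7.20 on the arrays of Crebbp+/- sample 1 and 6.17 and 6.35 on those of Crebbp+/- sample 2, against 6.61 and 6.62 on those of wild-type sample 1 and 5.47 and 5.30 on those of wild-type sample 2. Within each number, both Crebbp+/- arrays were above both wild-type arrays, but samples numbered 2 were lower than samples numbered 1 in both genotypes. The difference of Fdps was 0.77 (SE 0.58), a fold of 1.7, with a 95% interval of -0.74 to 2.28, and it was 0.66 within samples numbered 1 and 0.88 within samples numbered 2. The difference of sample 2 minus sample 1 was -1.01 in Crebbp+/- and -1.23 in wild type, and the Gapdh 5′ minus 3′ signal moved the same way, by -1.0 in Crebbp+/- and -1.37 in wild type. With that signal as a covariate, a fit added after the data had been seen, the difference of Fdps was 0.28 (limma adjusted p = 0.680). The signal was also higher in Crebbp+/- by 0.52. RNA integrity, sample number and genotype therefore cannot be told apart in that fit.

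Hmgcs1, the cytosolic HMG-CoA synthase at the start of the route, had 13.18 and 12.96 on the arrays of Crebbp+/- sample 1 and 13.05 and 13.10 on those of Crebbp+/- sample 2, against 12.98 and 13.05 on those of wild-type sample 1 and 13.11 and 13.14 on those of wild-type sample 2. Its genotypes overlapped on the arrays, and the difference was 0.004 (SE 0.10), with an interval of -0.26 to 0.27. Its other probe sets gave other values. The second, which shares probes with other sequences, differed by 0.32 (SE 0.17), the third by 0.37 (SE 0.18), the fourth by 1.14 (SE 0.98) and the fifth by -0.12 (SE 0.19), and the second, the third and the fourth were higher in Crebbp+/- within both sample numbers. With all probe sets averaged the difference of Hmgcs1 was 0.34. Mvk, mevalonate kinase, had sample means of 4.52 and 5.24 in Crebbp+/- samples 1 and 2, against 4.52 and 4.76 in wild-type samples 1 and 2. The difference of Mvk was 0.24 (SE 0.35), and it was 0.0009 within samples numbered 1 and 0.48 within samples numbered 2. Pmvk, which adds the next phosphate, differed by 0.18 (SE 0.25), and Mvd, which forms isopentenyl diphosphate, by 0.09 (SE 0.27), of opposite sign within the sample numbers. Idi1, the isomerase of isopentenyl diphosphate, had sample means of 9.69 and 10.22 in Crebbp+/- samples 1 and 2, against 9.35 and 10.38 in wild-type samples 1 and 2. Its values separated the sample numbers rather than the genotypes, and its difference was 0.09 (SE 0.41).

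Of the 11 genes of the squalene and sterol steps, 9 (81.8%) had a positive difference, against 56.9% of all genes, and 2 a negative one, with a median of 0.28. The median was 0.16 within samples numbered 1 and 0.32 within samples numbered 2, against 0.02 and 0.06 for all genes. Msmo1, the methylsterol monooxygenase that oxidises methyl groups of the sterol ring, had 7.75 and 7.86 on the arrays of Crebbp+/- sample 1 and 7.30 and 7.13 on those of Crebbp+/- sample 2, against 6.95 and 7.0 on those of wild-type sample 1 and 6.98 and 6.33 on those of wild-type sample 2. It was the 1 member of 29 (3.45%) with all 4 Crebbp+/- arrays above all 4 wild-type arrays, an order shown by 3.68% of all genes. No member had all Crebbp+/- arrays below all wild-type arrays, against 1.99% of all genes. Genotype means of Msmo1 were 7.51 ± 0.41 in Crebbp+/- and 6.82 ± 0.22 in wild type (SD, n = 2 each). The difference was 0.69 (SE 0.33), a fold of 1.62, with an interval of -0.16 to 1.55 and a limma adjusted p = 0.991. Sample 2 minus sample 1 was -0.58 in Crebbp+/- and -0.31 in wild type, the direction of the Gapdh 5′ minus 3′ signal. Over 23 alternative fits, 1 with that signal as a covariate, the genotype difference of Msmo1 ran from 0.40 to 0.98. Those that changed only the unit, the block, the filter or the variance model could not change the difference of Msmo1. Its other probe set past the filter had 2.91 and 3.26 on the arrays of Crebbp+/- sample 1 and 4.75 and 2.84 on those of Crebbp+/- sample 2, against 2.61 and 3.06 on those of wild-type sample 1 and 3.04 and 2.92 on those of wild-type sample 2. That probe set differed by 0.53 (SE 0.30), and 1 array of Crebbp+/- sample 2 stood far above the other 7.

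Hsd17b7, a reductase that acts beside Msmo1 in the removal of those methyl groups, had 6.98 and 7.16 on the arrays of Crebbp+/- sample 1 and 6.77 and 6.87 on those of Crebbp+/- sample 2, against 5.83 and 6.30 on those of wild-type sample 1 and 5.92 and 6.91 on those of wild-type sample 2. The lowest 3 wild-type arrays lay under every Crebbp+/- array, while 1 array of wild-type sample 2 fell within the Crebbp+/- range. The difference of Hsd17b7 was 0.71 (SE 0.29), a fold of 1.63, with an interval of -0.06 to 1.48, and a limma adjusted p = 0.991, which it shared with other members, while its unadjusted value was the lowest of the 29. Its probe set carries the suffix that marks probes shared with other sequences, and its other probe sets were below the filter. Nsdhl, the dehydrogenase of the same demethylation, had 5.98 and 6.04 on the arrays of Crebbp+/- sample 1 and 6.83 and 6.52 on those of Crebbp+/- sample 2, against 6.03 and 5.75 on those of wild-type sample 1 and 6.05 and 5.88 on those of wild-type sample 2. The difference of Nsdhl was 0.41 (SE 0.34), and it was 0.12 within samples numbered 1 and 0.71 within samples numbered 2.

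Sqle, squalene epoxidase, which makes the first oxygenated intermediate, had 7.35 and 7.50 on the arrays of Crebbp+/- sample 1 and 7.72 and 7.38 on those of Crebbp+/- sample 2, against 7.23 and 7.30 on those of wild-type sample 1 and 7.36 and 7.10 on those of wild-type sample 2. In each sample number both Crebbp+/- arrays were above both wild-type arrays, and the difference was 0.24 (SE 0.24). Ebp, the sterol isomerase, had sample means of 8.89 and 8.67 in Crebbp+/- samples 1 and 2, against 8.65 and 8.35 in wild-type samples 1 and 2, and differed by 0.28 (SE 0.23). Sc5d, a sterol desaturase, differed by 0.36 (SE 0.35), with values of opposite sign within the sample numbers. Its second probe set, near background with a mean of 3.05, differed by 0.61 (SE 0.28). That value was 0.14 within samples numbered 1 and 1.07 within samples numbered 2. Lss, which closes squalene epoxide into lanosterol, differed by 0.30 (SE 0.36), with values of 0.59 within samples numbered 1 and 0.002 within samples numbered 2. Dhcr7, the reductase of the last step to cholesterol, had sample means of 11.21 and 11.10 in Crebbp+/- samples 1 and 2, against 11.0 and 11.18 in wild-type samples 1 and 2, and differed by 0.07 (SE 0.15).

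Cyp51, which removes a methyl group from lanosterol, gave different values at its probe sets. The brightest had 7.84 and 7.60 on the arrays of Crebbp+/- sample 1 and 7.87 and 7.50 on those of Crebbp+/- sample 2, against 7.51 and 7.61 on those of wild-type sample 1 and 7.54 and 8.11 on those of wild-type sample 2, and it differed by 0.01 (SE 0.25). The second probe set had sample means of 6.56 and 6.34 in Crebbp+/- samples 1 and 2, against 5.90 and 5.81 in wild-type samples 1 and 2, and differed by 0.59 (SE 0.28), of the same sign within both sample numbers. Tm7sf2, a reductase of the sterol ring, was 1 of the 2 sterol enzymes with a negative difference. It had 4.68 and 5.30 on the arrays of Crebbp+/- sample 1 and 4.55 and 4.31 on those of Crebbp+/- sample 2, against 5.12 and 5.13 on those of wild-type sample 1 and 5.31 and 5.41 on those of wild-type sample 2, and both arrays of Crebbp+/- sample 2 lay under every wild-type array. Its difference was -0.53 (SE 0.32), and it was -0.13 within samples numbered 1 and -0.93 within samples numbered 2. Fdft1, squalene synthase, differed by -0.10 (SE 0.33) at its brightest probe set, which shares probes with other sequences, and by 0.35 (SE 0.34) at the other.

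**Figure D2:**
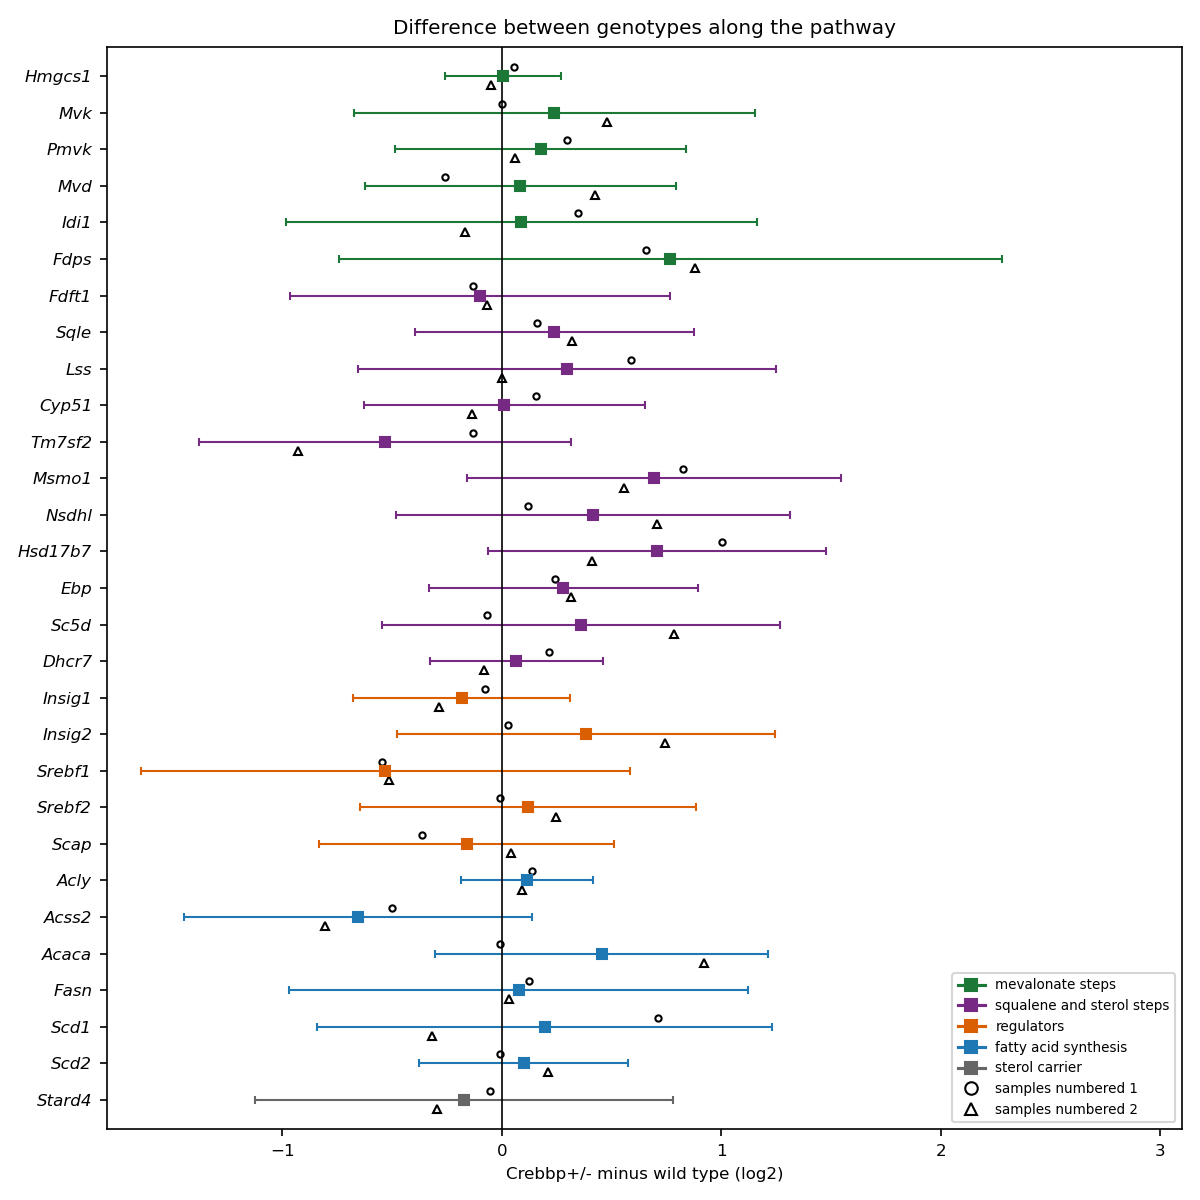
Difference Crebbp+/- minus wild type (log2, horizontal axis) of each of the 29 genes in pathway order. Squares are limma estimates, bars their 95% confidence intervals, open circles and triangles the differences within samples numbered 1 and 2. Every interval crosses 0, and squares of 15 of the 17 sterol enzymes lie to the right of 0.

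The 5 regulators showed no shared direction, with 2 positive (40%, against 56.9% of all genes) and 3 negative differences and a median of -0.16. Srebf1, which encodes SREBP-1, the form that mainly drives fatty acid genes, had 8.0 and 7.21 on the arrays of Crebbp+/- sample 1 and 8.36 and 8.50 on those of Crebbp+/- sample 2, against 8.17 and 8.13 on those of wild-type sample 1 and 8.98 and 8.91 on those of wild-type sample 2. Within each sample number both Crebbp+/- arrays were below both wild-type arrays, and samples numbered 2 were higher than samples numbered 1 in both genotypes. The difference of Srebf1 was -0.53 (SE 0.43), a fold of 0.692, and it was -0.54 within samples numbered 1 and -0.52 within samples numbered 2. With the Gapdh 5′ minus 3′ signal as a covariate it was -0.19. Srebf2, which encodes SREBP-2, the form that mainly drives sterol genes, had sample means of 10.41 and 10.01 in Crebbp+/- samples 1 and 2, against 10.42 and 9.77 in wild-type samples 1 and 2, and differed by 0.12 (SE 0.29), while its other probe set differed by -0.19 (SE 0.24).

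Insig1, which retains SCAP in the endoplasmic reticulum and is itself an SREBP target, had 11.31 and 11.36 on the arrays of Crebbp+/- sample 1 and 11.0 and 10.91 on those of Crebbp+/- sample 2, against 11.41 and 11.42 on those of wild-type sample 1 and 11.28 and 11.20 on those of wild-type sample 2. Both arrays of each Crebbp+/- sample were below both arrays of the wild-type sample of the same number, and the difference was -0.18 (SE 0.19). Insig2, its partner in that retention, had sample means of 6.72 and 6.83 in Crebbp+/- samples 1 and 2, against 6.70 and 6.08 in wild-type samples 1 and 2, and differed by 0.38 (SE 0.33), with wild-type sample 2 below the other 3 samples. Scap, the escort, differed by -0.16 (SE 0.26), with values of opposite sign within the sample numbers.

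Of the 6 fatty acid genes, 5 (83.3%) had a positive difference, against 56.9% of all genes, and 1 a negative one, with a median of 0.11. Scd1, near background, is 1 of the 5, and without it the count was 4 of 5 with a median of 0.10. Acly, which makes cytosolic acetyl-CoA from citrate, had 12.33 and 12.36 on the arrays of Crebbp+/- sample 1 and 12.40 and 12.40 on those of Crebbp+/- sample 2, against 12.15 and 12.26 on those of wild-type sample 1 and 12.33 and 12.29 on those of wild-type sample 2. The lowest Crebbp+/- array equalled the highest wild-type array to 2 decimals, and the difference was 0.12 (SE 0.11). The second probe set of Acly had sample means of 11.63 and 11.63 in Crebbp+/- samples 1 and 2, against 11.41 and 11.21 in wild-type samples 1 and 2, with every Crebbp+/- array above every wild-type array, and differed by 0.32 (SE 0.14). Acss2, which makes acetyl-CoA from acetate, had 6.92 and 7.19 on the arrays of Crebbp+/- sample 1 and 6.97 and 7.61 on those of Crebbp+/- sample 2, against 7.81 and 7.30 on those of wild-type sample 1 and 7.73 and 8.46 on those of wild-type sample 2. Both Crebbp+/- arrays were below both wild-type arrays in each sample number. The difference of Acss2 was -0.65 (SE 0.30), a fold of 0.635, with an interval of -1.45 to 0.14 and a limma adjusted p = 0.991, and its other probe set differed by -0.38 (SE 0.35).

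Acaca, acetyl-CoA carboxylase, which commits acetyl-CoA to fatty acids, had 9.27 and 9.28 on the arrays of Crebbp+/- sample 1 and 9.43 and 9.74 on those of Crebbp+/- sample 2, against 9.55 and 9.02 on those of wild-type sample 1 and 8.65 and 8.67 on those of wild-type sample 2. The difference of Acaca was 0.46 (SE 0.29), but it was -0.01 within samples numbered 1 and 0.92 within samples numbered 2. Fasn, fatty acid synthase, had sample means of 7.59 and 8.27 in Crebbp+/- samples 1 and 2, against 7.47 and 8.24 in wild-type samples 1 and 2, which separated the sample numbers and overlapped between genotypes, and differed by 0.08 (SE 0.40). Scd2, a desaturase that makes monounsaturated fatty acids, had sample means of 12.12 and 11.94 in Crebbp+/- samples 1 and 2, against 12.13 and 11.73 in wild-type samples 1 and 2, and differed by 0.10 (SE 0.18). Scd1, the other desaturase, had 4.39 and 2.37 on the arrays of Crebbp+/- sample 1 and 2.27 and 2.26 on those of Crebbp+/- sample 2, against 2.51 and 2.83 on those of wild-type sample 1 and 2.82 and 2.36 on those of wild-type sample 2. It passed the filter through 1 Crebbp+/- array alone, and the other arrays lay near background. Its difference was 0.20 (SE 0.40), and without that array it was -0.31. Stard4, which carries sterols between membranes, had sample means of 8.32 and 7.57 in Crebbp+/- samples 1 and 2, against 8.37 and 7.87 in wild-type samples 1 and 2, and differed by -0.17 (SE 0.36).

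Over all 29 genes, 22 had a positive difference (75.9%), against 56.9% of all genes, and the median was 0.12, against 0.04. Without Scd1, which passed the filter through 1 Crebbp+/- array, 21 of 28 (75.0%) had a positive difference and the median was 0.11. The median absolute difference of the members, 0.20, was close to that of all genes, 0.18, and 6 members (20.7%) differed by more than 0.5 in either direction, against 12.0% of all genes. Fdps had a higher difference than all but 233 of 10600 genes, and Acss2 a lower one than all but 271. Within both sample numbers 12 members (41.4%) were higher in Crebbp+/-, against 37.2% of all genes, and 6 (20.7%) were lower, against 24.7%. Both shares were near those of all genes. Fdps, Sqle, Msmo1 and Acly (13.8% of members) had both Crebbp+/- arrays above both wild-type arrays within each number, against 12% of all genes. Insig1, Srebf1 and Acss2 (10.3%) had the reverse order, against 5.77% of all genes. The half-width of the 95% intervals had a median of 0.79, which exceeds the absolute difference of every member.

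**Figure D3:**
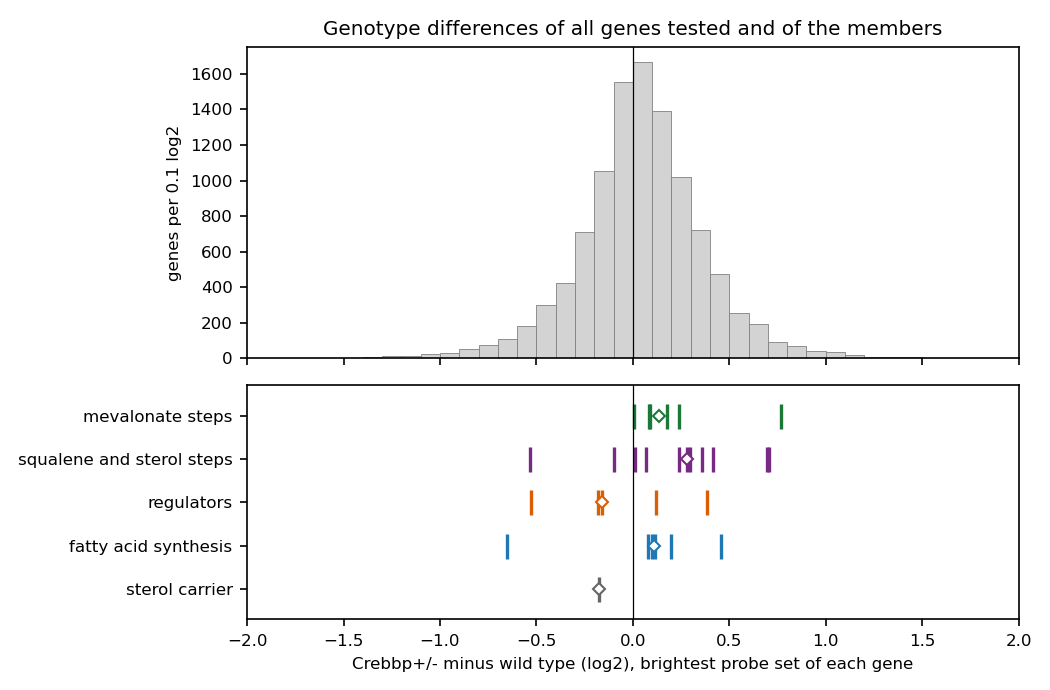
Differences Crebbp+/- minus wild type (log2, horizontal axis) of all 10600 genes tested as a histogram, with the 29 members marked by role. The members lie within the range of all genes, between -0.65 for Acss2 and 0.77 for Fdps, with 22 of 29 to the right of 0.

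The 29 genes had 67 probe sets, of which 52 passed the filter, and 14 genes had more than 1. Of the 23 probe sets that were not the brightest of their gene, 18 had a positive difference and 5 a negative one, 16 had the sign of the brightest and 7 the opposite sign. None of the 52 passed at an adjusted or at an unadjusted limma p of 0.05. The brightest probe sets of Fdft1, Hsd17b7 and Acly carry the suffix for probes shared with other sequences, and those of Mvd and Lss the suffix for probes shared by several transcripts. Another 3 dimmer probe sets, chosen after their values were seen, differed widely between sample numbers. The fourth probe set of Hmgcs1 had sample means of 9.59 and 8.40 in Crebbp+/- samples 1 and 2, against 9.21 and 6.51 in wild-type samples 1 and 2, and sample 2 minus sample 1 was -1.18 in Crebbp+/- and -2.70 in wild type. That of the second probe set of Scd2 was -1.98 in Crebbp+/- and -3.03 in wild type, with sample means of 10.90 and 8.93 in Crebbp+/- samples 1 and 2, against 10.61 and 7.58 in wild-type samples 1 and 2, and that of the third probe set of Acly was -0.80 in Crebbp+/- and -1.11 in wild type. At the brightest probe set, sample 2 minus sample 1 was 0.01 in Crebbp+/- and 0.11 in wild type for Hmgcs1 and -0.18 in Crebbp+/- and -0.40 in wild type for Scd2. These probe sets followed the Gapdh and Actb 5′ minus 3′ signals, which were lower in samples numbered 2 of both genotypes and lowest in wild-type sample 2, and the part of RNA integrity in their genotype differences, 1.14 (SE 0.98) for Hmgcs1, 0.82 (SE 1.19) for Scd2 and 0.56 (SE 0.51) for Acly, was not tested.

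**Figure D4:**
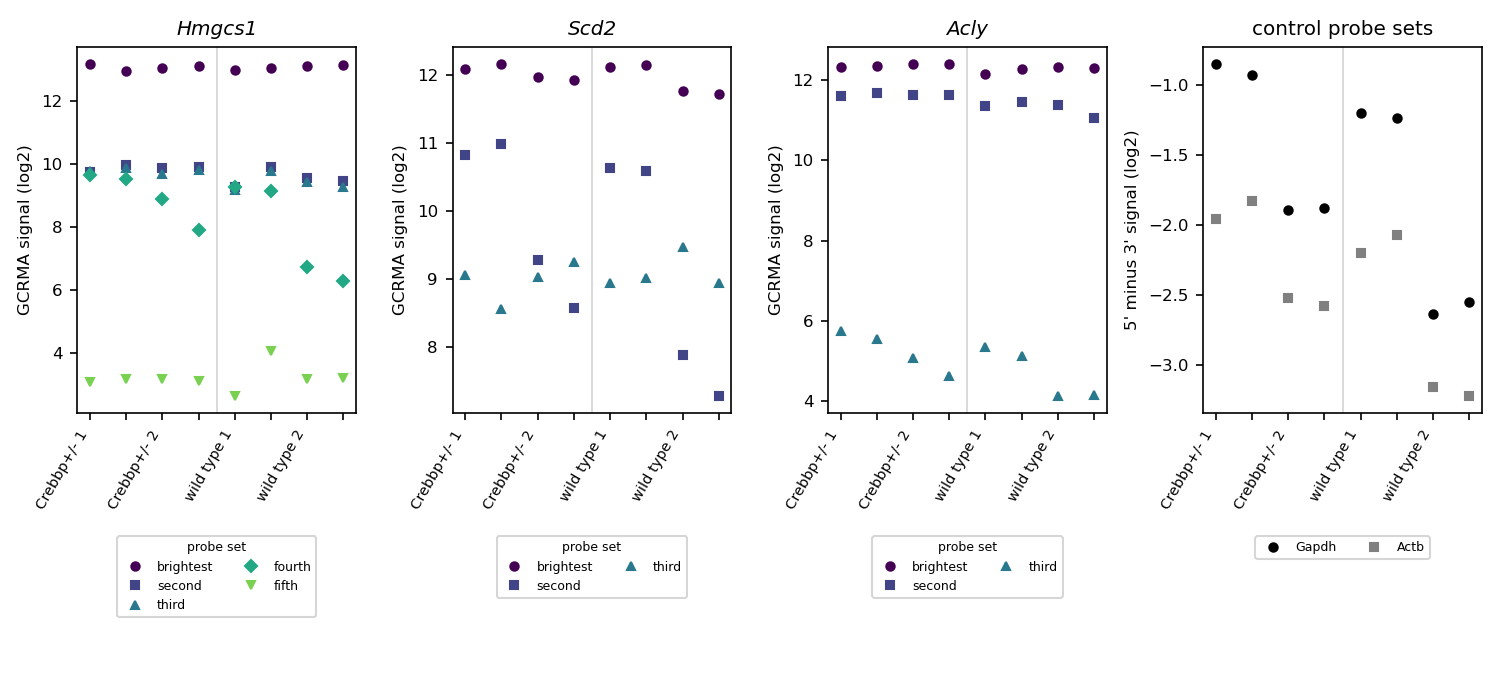
GCRMA signal (log2, vertical axis) of every probe set past the filter of Hmgcs1, Scd2 and Acly on the 8 arrays, Crebbp+/- left of wild type, and beside them the 5′ minus 3′ log2 signal of the Gapdh and Actb control probe sets. The fourth probe set of Hmgcs1 and the second of Scd2 are lowest in wild-type sample 2, as are both control signals.

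Beyond the 29 genes, 34 of 50 listed genes of the same pathways passed the filter, 5 were at background (Me1, Scd3, Nr1h3, Ppara and Pparg) and 11 were not analysed here. Of the 34, 21 had a positive and 13 a negative difference, where 56.9% of all genes were positive. Their median was 0.05, and 0 passed at an adjusted or unadjusted limma p of 0.05. The 4 positive differences with the lowest p belonged to Elovl6, Tmem97, Rnf139 and Gpam. Elovl6, an elongase of fatty acids, had sample means of 8.85 and 9.08 in Crebbp+/- samples 1 and 2, against 8.49 and 8.54 in wild-type samples 1 and 2, and differed by 0.45 (SE 0.21). Tmem97, a sterol-responsive membrane protein that binds the cholesterol transporter NPC1, had 9.03 and 8.52 in Crebbp+/- samples 1 and 2, against 8.41 and 8.01 in wild-type samples 1 and 2, and differed by 0.56 (SE 0.30). It was the 1 gene of these 34 with all 4 Crebbp+/- arrays above all 4 wild-type arrays, an order shown by 3.68% of all genes. Sample 2 minus sample 1 of Tmem97 was -0.52 in Crebbp+/- and -0.40 in wild type. Rnf139, a ubiquitin ligase of the endoplasmic reticulum, differed by 0.70 (SE 0.42), and Gpam, which starts glycerolipid synthesis, by 0.24 (SE 0.21). Rnf139 had sample means of 10.31 and 9.45 in Crebbp+/- samples 1 and 2, against 9.58 and 8.79 in wild-type samples 1 and 2. The Gapdh 5′ minus 3′ signal was likewise lower in samples numbered 2, and the part of RNA integrity in the differences of Tmem97 and Rnf139 was not tested. The 4 negative differences with the lowest p were -0.43 (SE 0.38) for Acacb, the mitochondrial acetyl-CoA carboxylase, -0.18 (SE 0.18) for Npc2, which moves cholesterol out of lysosomes, -0.35 (SE 0.33) for Syvn1, a ubiquitin ligase, and -0.27 (SE 0.29) for Abca1, a cholesterol exporter. Acacb lay near background, with a mean of 3.09 and its highest array, 4.29, in wild-type sample 1. It differed by -0.77 within samples numbered 1 and by -0.10 within samples numbered 2.

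By group, 6 of 9 measured genes of sterol synthesis and uptake, 3 of 5 of SREBP processing, 9 of 14 of fatty acid handling and 3 of 6 nuclear receptors and their targets had a positive difference, with medians of 0.06, 0.01, 0.05 and 0.01. These medians lay near the 0.04 of all genes, of which 56.9% had a positive difference. Mbtps1 and Mbtps2, the proteases that release active SREBP, differed by -0.09 (SE 0.30) and 0.01 (SE 0.29).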

How the data were processed

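The deposited values of 8 arrays were used as given. They are log2 signals that the authors made with GCRMA, per the submitters' processing notes, with a version not given in the sources used here. Apart from 64 controls the array has 45037 probe sets, of which 34945 carried 1 symbol in the supplied platform annotation, 932 carried several and 9160 had none listed, and the identifiers of 34741 probe sets matched the GRCm38.p6 table without changing a symbol. The 2 arrays of a sample were averaged. The 22518 probe sets with a mean above the median of all (2.72) entered a limma fit (limma 3.58.1, R 4.3.3, lmFit and eBayes with an intensity trend), with genotype as the only term and Benjamini-Hochberg adjustment over all of them. A gene was represented by its brightest probe set, which gave 10600 genes. The number of arrays limits the precision. The smallest two-sided p of an exact permutation of 2 against 2 samples is 0.333, so that test was left out.

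Named were all 29 members, the 4 other pathway genes with the lowest p in each direction, Mbtps1 and Mbtps2, and the brightest gene or the background genes of marker lists; probe sets beyond the brightest and Kit, Cd93, Crebbp and 3 stem cell genes were named for the checks they serve. Members and lists were chosen with earlier results of these data known. Promoter sequences are from RefSeq on GRCm38.p6. Alternatives were single arrays as units, a block for the sample number, other filters, added normalization, a floor, the variance model, the choice of probe set, each sample and each array left out, and a covariate for RNA integrity, added after the data had been seen. Samples with the same number correlated in their deviations (r = 0.55 across probe sets), but the labels tie them to nothing beyond a number.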

Additional observations from a re-analysis of the deposited data

Results flagged for a closer look

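Of 58 groups of 4 arrays examined, 1 for each gene and genotype, 4 held an array set apart from the others by Dixon's criterion; chance alone sets apart about 1 in 20 groups, and 2 arrays of a sample are not independent. For Scd1, the highest Crebbp+/- array had 4.39 and the nearest other 2.37. For Cyp51, the highest wild-type array had 8.11 and the nearest other 7.61. For Msmo1, the lowest wild-type array had 6.33 and the nearest other 6.95. For Ebp, the lowest wild-type array had 8.10 and the nearest other 8.60.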

How the results depend on the processing

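No member passed an adjusted p of 0.05 under any of 23 alternatives, and across all probe sets 0 passed in every fit with a test except that with 8 arrays taken as independent, which called 1 probe set. The labels give both genotypes the same sample numbers, and with the number as a replicate block 0 members were called, the median difference was 0.12, and the count of probe sets with an unadjusted limma p under 0.05 was 3673 (16.3%), against 1089 (4.84%) without the block. Of the members 5 were under it with the block (17.2%, Fdps, Msmo1, Hsd17b7, Srebf1 and Acss2), against 0 without it. The 16.3% counts probe sets, while members are counted as genes. For all genes the share was 2.67% without the block and is not given with it. The labels tie these samples by a number alone, so they were not treated as pairs. Their values did go with the number, with r = 0.55 over 2 pairs and lower Gapdh 5′ minus 3′ signals in samples numbered 2 of both genotypes. The main fit leaves that shared part in its spread between samples. The member median, 0.115, was 0.0774 over the 19 members in the brightest 25% of probe sets, 13 of which had a positive difference, 0.195 with all probe sets of each gene averaged and 0.151 with the Gapdh 5′ minus 3′ covariate, which was added after the data had been seen. With 1 sample or array left out it ran from 0.104 to 0.167, and the count of members with a positive difference from 17 to 22. A lone sample left in a genotype was assumed to vary like the other genotype.

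Of 29 members, 14 kept their sign under every alternative that included them. Positive were 11 (Pmvk, Fdps, Sqle, Msmo1, Nsdhl, Hsd17b7, Ebp, Sc5d, Insig2, Acly and Acaca) and negative 3 (Tm7sf2, Srebf1 and Acss2). Fits that changed only the unit, the block, the filter or the variance model repeat the main difference, so they could not turn a sign. Only samples or arrays left out, added normalization, a floor, averaged probe sets and the covariate could do so. Fdps, Tm7sf2, Nsdhl, Hsd17b7, Sc5d and Insig2 were in 22 of the 23 alternatives. With 1 sample or array left out, Fdps ran from 0.15 to 1.38, Msmo1 from 0.40 to 0.98, Hsd17b7 from 0.46 to 0.95, Srebf1 from -0.94 to -0.12 and Acss2 from -0.93 to -0.38. The sign of Cyp51 turned with added quantile normalization (-0.0156). With probe sets averaged per gene it turned for Fdft1 (0.13), Srebf2 (-0.0349) and Stard4 (0.0716), and with the covariate for Fdft1 (0.13), Srebf2 (-0.11), Scd1 (-0.0258) and Scd2 (-0.0314). The causes were not tested. Signs also turned with 1 sample or array left out, where differences ran from -0.0518 to 0.0600 for Hmgcs1, from -0.12 to 0.60 for Mvk, from -0.13 to 0.30 for Mvd, from -0.43 to 0.61 for Idi1, from -0.38 to 0.18 for Fdft1, from -0.0765 to 0.67 for Lss, from -0.13 to 0.15 for Cyp51, from -0.0252 to 0.16 for Dhcr7, from -0.37 to 0.0101 for Insig1, from -0.21 to 0.45 for Srebf2, from -0.42 to 0.10 for Scap, from -0.31 to 0.46 for Fasn, from -0.36 to 0.75 for Scd1, from -0.10 to 0.30 for Scd2 and from -0.55 to 0.20 for Stard4.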
